A study of Mus musculus with 4 samples.

Results

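A set of 8 genes of cholesterol efflux and HDL remodelling was followed in mouse liver: the transporter genes Abca1, Abca3, Abcg1, Abcg5, Abcg8 and Npc1l1, and the plasma protein genes Lcat and Pltp. They were taken by name from the array, where each had 1 probe, so that the set holds 8 of 31709 genes and 8 of 39429 probes. The probes of 7 of the 8 were bright enough to be tested; that of Npc1l1 was not. Livers came from 4 male IlrunKO mice, which lack Ilrun in the whole body, and from 4 male wild-type (WT) mice. Both genotypes were C57BL/6 on chow, and livers were collected after a 4 h fast; their age and the part of Ilrun that was deleted are not known here. Each of 4 two-colour arrays held 1 IlrunKO and 1 WT liver, and the dyes were swapped: red Cy5 marked IlrunKO RNA on arrays 1 and 2, and green Cy3 did so on arrays 3 and 4. Values are log2 ratios of IlrunKO over WT or log2 normalised levels in one liver, and the words rose and fell are kept for genes with an adjusted p below 0.05 in limma's fit.

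Cells that hold too much cholesterol pass it to lipid-poor apolipoprotein A-I through ABCA1 and to formed HDL particles through ABCG1. In plasma, LCAT esterifies the cholesterol of HDL and PLTP moves phospholipid onto it. In the liver, ABCG5 and ABCG8 form a heterodimer that secretes cholesterol and plant sterols into bile, and NPC1L1 takes sterols up in the opposite direction, chiefly in the gut of the mouse. ABCA3 is a phospholipid transporter best known from lung alveolar cells, where it loads surfactant into lamellar bodies. Abca1, Abcg1, Abcg5 and Abcg8 are textbook targets of the liver X receptors (LXR), which sense oxysterols.

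Each gene's value rests on 1 spot per array that carries a 60-base probe found once on the array. The first 30 bases of 3 of these probes are shown, since the results turn on the genes they read: Abca3, the gene that rose, and the pair Abcg5 and Abcg8.
Abca3: cagggctgagtagtgtcatctcttgaggat
Abcg5: gcaatgtggtgcttggacattgtgactgaa
Abcg8: acacggtggcaaagacaaatccagttgtct
In the files' coordinates (mouse genome mm9), the Abca3 probe lies at chr17:24547066-24547125 on the plus strand. The Abcg5 probe lies at chr17:85057593-85057652 on the minus strand and the Abcg8 probe at chr17:85098745-85098804 on the plus strand. The Abca1 probe lies at chr4:53043944-53044003, that of Npc1l1 at chr11:6111461-6111520, that of Lcat at chr8:108463857-108463916 and that of Pltp at chr2:164665022-164665081, all on the minus strand. Exons and UTRs were not assigned, since the annotation used here is of another build.

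The share of probes well above background ran from 60.0% to 67.1% over the 8 channels, and no spot was saturated. The brighter Ilrun probe had log2 ratios of -4.12, -4.11, -4.04 and -4.56 on arrays 1 to 4, in the direction of the labels on every array. Its dimmer second probe had smaller ratios in the same direction, of -2.03, -2.18, -1.78 and -2.59. All 12 hepatocyte genes checked were well above background. The arrays shared 1 slide. The number of arrays limits the precision: a 95% confidence interval of a gene's log2 ratio reached, at the median, 0.147 to either side. Nothing says whether a channel held 1 mouse or a pool; 1 mouse is assumed.

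Among the 8 genes, Abca3 was higher in IlrunKO liver, by 1.53-fold. Abcg1 had a ratio above 0 on every array without passing the test, and Abca1, Lcat and Pltp had ratios below 0 on 3 of 4 arrays each, also without passing. The bile sterol transporter pair Abcg5 and Abcg8 had fitted ratios of -0.021 and 0.016. The count was thus 1 rise and 0 falls of 7 genes tested, while 1.37% of all 19651 genes passed in either direction and 0.718% rose. At an unadjusted p under 0.05 the count was 4 of 7 (Abca1, Abca3, Abcg1 and Lcat), against 20.5% of all genes. The median ratio of the 7 genes was -0.021, and that of all genes tested -0.0015.

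**Figure D1:**
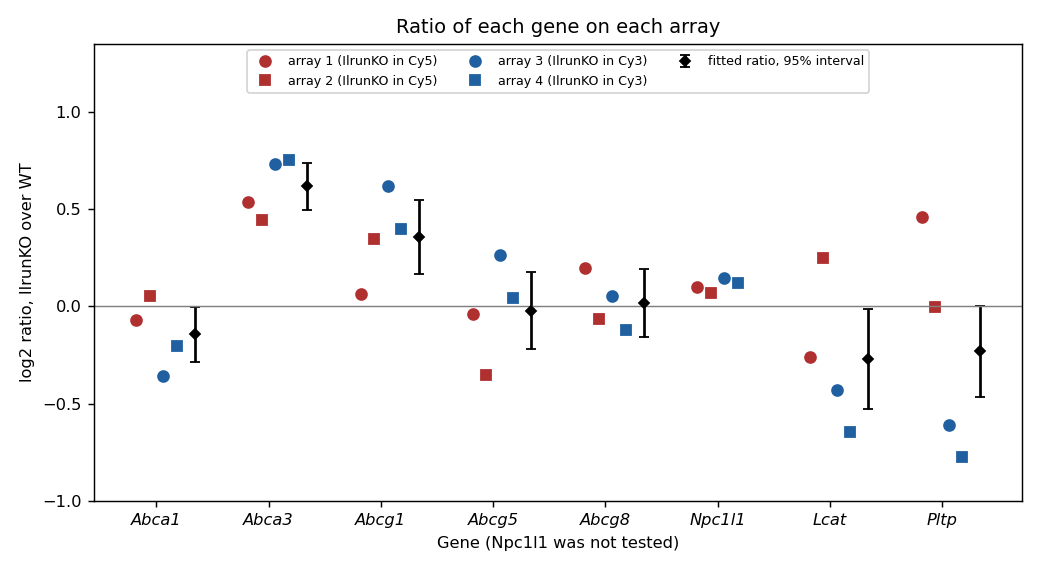
Log2 ratio of IlrunKO over WT (vertical axis) for each of the 8 genes on arrays 1 to 4, with red symbols where IlrunKO RNA was in Cy5 and blue symbols where it was in Cy3; black diamonds are limma's fitted ratios with 95% confidence intervals. The 4 Abca3 points lie between 0.45 and 0.75, whereas those of Pltp run from 0.46 on array 1 to -0.77 on array 4.

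Abca3, the lamellar body phospholipid transporter, had log2 levels of 12.80, 12.54, 12.65 and 12.53 in the IlrunKO livers of arrays 1 to 4. Its levels in the WT livers of the same arrays were 12.26, 12.09, 11.92 and 11.77. Every IlrunKO liver lay above every WT liver. Of all tested genes with 8 levels, 4.81% had IlrunKO levels wholly above WT levels. The 4 ratios of Abca3 were 0.54, 0.45, 0.73 and 0.75, or 0.62 ± 0.15 (SD, n = 4). Limma's fit gave a ratio of 0.62 (SE 0.047, 95% confidence interval 0.50 to 0.74) with an adjusted p of 0.0347 over all genes, the 25th smallest p of 19651. In a fit of all 24350 probes, of which 1.50% passed, the Abca3 probe had an adjusted p of 0.0320.

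The spread of Abca3 was wider in WT than in IlrunKO liver, with SDs of 0.21 and 0.12 on the log2 scale. Its ratio was larger with IlrunKO in Cy3 (mean 0.74 over arrays 3 and 4) than in Cy5 (mean 0.49 over arrays 1 and 2). The sign was the same in both orientations. An additive dye effect cancels in the fitted ratio, since each orientation has 2 arrays. The difference between the orientations cannot be told apart from a difference between the mice of arrays 1 and 2 and those of arrays 3 and 4. The call did not hold without array 3 (0.62, adjusted p 0.158) or without array 4 (0.61, adjusted p 0.127), in each of which limma called 1 gene of the whole array. It was also lost with Agilent's processed signals (0.59, adjusted p 0.0629), with median centring in place of loess (0.49, adjusted p 0.348) and with a trended and robust variance (0.62, adjusted p 0.258).

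Abcg1, which moves cholesterol from cells to HDL particles, had levels of 8.51, 8.76, 8.59 and 8.55 in IlrunKO liver and of 8.45, 8.41, 7.97 and 8.15 in WT liver. These groups did not overlap either, so that Abca3 and Abcg1 were the 2 of 7 tested genes whose levels stood wholly apart. Of all tested genes with 8 levels, 8.99% did so when both directions are counted. The gap was narrow, since the lowest IlrunKO level was 8.51 and the highest WT level 8.45, both on array 1. The ratios of Abcg1 were 0.065, 0.35, 0.62 and 0.40 (0.36 ± 0.23, SD, n = 4). The fitted ratio of 0.36 (1.28-fold, SE 0.073, 95% confidence interval 0.17 to 0.55) had an unadjusted p of 0.00488 in limma and an adjusted p of 0.0946. It passed in 1 of 14 alternatives, a separate-channel fit (adjusted p 0.0158).

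Abcg1 is also a gene of macrophages, and the macrophage markers measured on the same arrays are therefore given beside it. All 16 Kupffer cell and macrophage genes listed were well above background, and 15 of the 16 had fitted ratios above 0, while none passed the test. Of all 19651 genes tested, 9706 had fitted ratios above 0. Their levels, summed per liver on a linear scale, ranged from 43864 to 66343 in IlrunKO and from 34296 to 53196 in WT liver. The log2 ratio of that sum was -0.28, 0.95, 0.64 and 0.63 on arrays 1 to 4. Array 1 was thus the lowest for both the macrophage sum and Abcg1. The part of these cells in the Abcg1 ratio was not tested. In a whole liver, a difference in the number of cells of a type and a difference in RNA per cell cannot be told apart.

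The summed level of the fat cell markers was also higher on every array, with log2 ratios of 1.48, 0.88, 1.81 and 1.00. That sum ran from 5846 to 9217 in IlrunKO and from 2636 to 3193 in WT liver. It rests on 6 of 9 genes listed. Of these 6, 2 rose, against 0.718% of all genes, namely Cfd (fitted ratio 3.82) and Adrb3 (1.04). Cidec (1.53), Pparg (0.69) and Retn (0.14) did not pass over all genes, and Fabp4, the fatty acid carrier of fat cells, had ratios of -0.13, -0.31, 0.030 and -0.038. A second, dimmer Cidec probe read 0.71 with an adjusted p of 0.0413 over all probes by limma, where the brighter one had 0.0519. The second Adrb3 probe read 0.60. The defining fat cell genes Adipoq, Plin1 and Lep were not well above background. The part of fat cells in the Abca3 and Abcg1 ratios was not tested.

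Abca1, the transporter that starts HDL formation, had levels of 10.87, 11.06, 11.05 and 10.87 in IlrunKO liver. In WT liver they were 10.93, 11.00, 11.41 and 11.07. The groups overlapped, and the WT liver of array 3 was the highest of all 8. The ratios were -0.068, 0.053, -0.36 and -0.20 (-0.14 ± 0.18, SD, n = 4). Limma's fitted ratio of -0.14 (95% confidence interval -0.29 to -0.0019) had an adjusted p of 0.239, so Abca1 did not pass. The fitted ratio of Abca1 stayed between -0.26 and -0.10 over 14 alternatives, in none of which it passed.

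**Figure D2:**
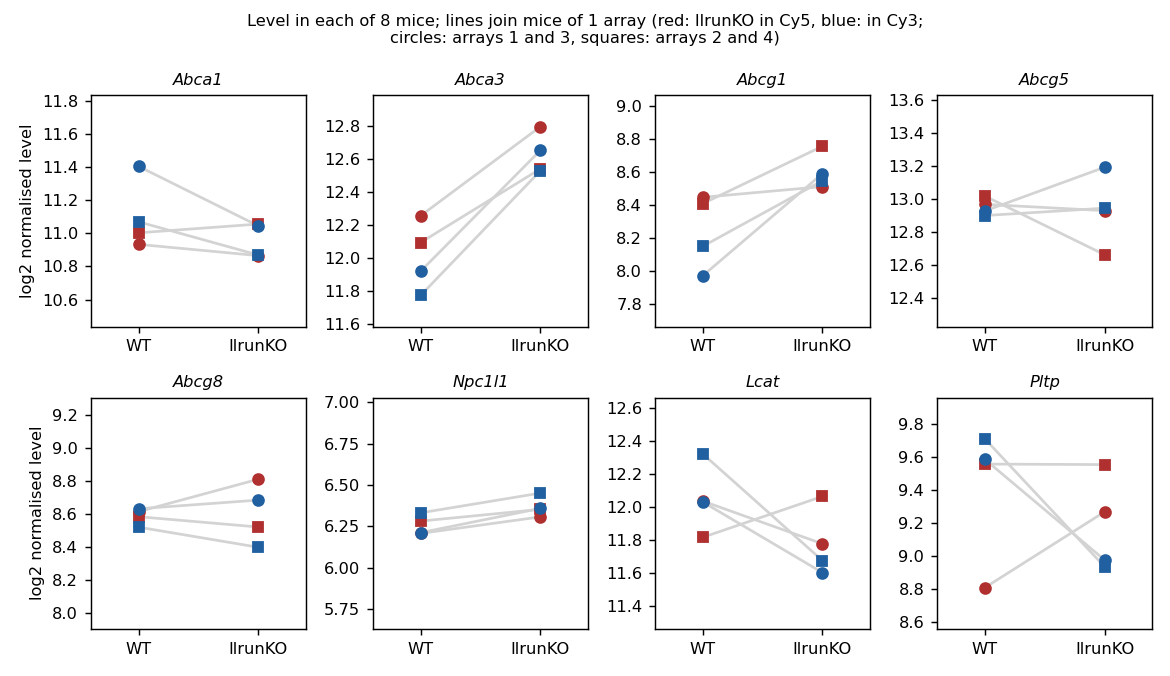
Log2 normalised level (vertical axis, spanning the same range in every panel) of each gene in the 4 WT and the 4 IlrunKO livers; grey lines join the livers of 1 array. The IlrunKO points of Abca3 lie from 12.53 to 12.80, above the WT points from 11.77 to 12.26, while the WT points of Abcg5 and Abcg8 sit closer together than their IlrunKO points.

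Neither gene of the bile sterol transporter passed the test. Abcg5 had levels of 12.93, 12.66, 13.19 and 12.95 in IlrunKO liver and of 12.97, 13.02, 12.93 and 12.90 in WT liver. The IlrunKO livers of arrays 2 and 3 were the lowest and the highest of all 8, so the groups overlapped fully. Its ratios were -0.038, -0.36, 0.26 and 0.044. The fitted ratio was -0.021 (95% confidence interval -0.22 to 0.18, adjusted p 0.914 by limma), so the interval holds changes of up to about that size in either direction.

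Abcg8 had levels of 8.81, 8.52, 8.68 and 8.40 in IlrunKO liver and of 8.61, 8.58, 8.63 and 8.52 in WT liver. The highest and the lowest liver were again both IlrunKO. Its ratios were 0.20, -0.062, 0.052 and -0.12, with a fitted ratio of 0.016 (95% confidence interval -0.16 to 0.19, adjusted p 0.924 by limma). For both genes the SD of the level was larger in IlrunKO liver, at 0.22 against 0.051 for Abcg5 and at 0.18 against 0.049 for Abcg8; this difference in spread was not tested. The IlrunKO livers that were high differed between the genes: array 3 held the highest level of Abcg5 and array 1 that of Abcg8.

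Npc1l1, the sterol uptake transporter, was well above background in 1 of 4 IlrunKO and 0 of 4 WT livers. Its ratios of 0.10, 0.071, 0.15 and 0.12 were therefore not tested and give no fold. Of 6 genes of the intestinal epithelium that were checked, Lct, Cdx1, Cdx2 and Vil1 were not well above background, while Fabp2 and Sis passed the filter. Fabp2, a fatty acid carrier of the gut that liver also expresses, had ratios of 1.11, -0.14, 0.43 and 0.47 (adjusted p 0.293 by limma), and Sis had a fitted ratio of 0.0044. Their summed level ran from 17244 to 24389 in IlrunKO and from 11365 to 18988 in WT liver.

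Lcat, the liver gene for the enzyme that esterifies HDL cholesterol, had levels of 11.78, 12.07, 11.60 and 11.68 in IlrunKO liver. In WT liver they were 12.04, 11.82, 12.03 and 12.32. IlrunKO was the lower liver on arrays 1, 3 and 4 and the higher one on array 2. The ratios were -0.26, 0.25, -0.43 and -0.65 (-0.27 ± 0.38, SD, n = 4). The fitted ratio of -0.27 (95% confidence interval -0.53 to -0.013) had an unadjusted p of 0.0426 and an adjusted p of 0.228 in limma. Without array 1 it was -0.14 (adjusted p 0.429), and over the 14 alternatives it ran from -0.40 to -0.14 without passing (adjusted p 0.0604 to 0.503).

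Pltp, which encodes the phospholipid transfer protein of plasma, had levels of 9.27, 9.55, 8.98 and 8.94 in IlrunKO liver and of 8.81, 9.56, 9.59 and 9.71 in WT liver. The WT liver of array 1 was the lowest of all 8, and the other 3 WT livers were the highest. Its ratios of 0.46, -0.0031, -0.61 and -0.77 had the widest spread of the 8 genes (-0.23 ± 0.57, SD, n = 4). They differed between the dye orientations, with a mean of 0.23 where IlrunKO was in Cy5 and of -0.69 where it was in Cy3. The dye term had an unadjusted p of 0.00424 (adjusted p 0.133 over all genes). The genotype term, which takes out this difference, was -0.23 (95% confidence interval -0.47 to 0.0035, adjusted p 0.249 by limma). It was -0.35 without array 1 and -0.12 without array 2, the ends of its range over the 14 alternatives, and passed in none (adjusted p 0.102 to 0.701).

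The Pltp probe shares its place with the probe of Ctsa, the gene for the lysosomal protective protein cathepsin A, which is read from the opposite strand. The probes overlap by 59 bases and are reverse complements of each other there. The ratios of Ctsa were 0.040, 0.49, 0.60 and 0.30 on arrays 1 to 4, with a fitted ratio of 0.36 (adjusted p 0.149 by limma). Array 1 was the lowest for Ctsa and the highest for Pltp. This gene was named after its values were seen.

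The order of arrays in Lcat and Pltp can be set beside that of the hepatocyte markers. The summed level of 12 hepatocyte genes, all well above background, had log2 ratios of 0.076, 0.40, -0.59 and -0.67 on arrays 1 to 4. It ranged from 814897 to 1237680 in IlrunKO and from 940358 to 1295400 in WT liver. Of the 12 genes, 10 had fitted ratios below 0 and none passed, while 9945 of all 19651 genes tested lay below 0. Arrays 3 and 4, where IlrunKO was in Cy3, were the lowest for this sum, for Lcat and for Pltp. The part of hepatocyte RNA and of the dye in these ratios was not tested. The markers of stellate cells and fibroblasts were lower as a sum on every array, with log2 ratios of -0.58, -0.34, -0.11 and -0.25. Their summed level ran from 25683 to 36570 in IlrunKO and from 37825 to 39406 in WT liver, without overlap. All 12 genes of that list had fitted ratios below 0. None passed, and 10 had an unadjusted p under 0.05 in limma, against 20.5% of all genes. Of 10 endothelial cell genes, 9 had fitted ratios below 0 and 1 above, and 0 passed. The log2 ratios of their summed level were -0.14, 0.029, -0.18 and -0.0068. Of 5 cholangiocyte genes tested, 3 lay above 0 and 2 below, and 0 passed. The part of these cell types in the ratios of the 8 genes was not tested.

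The promoter stretches of 3 loci are printed to show what sequence lies upstream of the gene that rose and of LXR targets that did not pass. RefSeq promoter windows (250 bases before to 50 after the start site, build GRCm38.p6) were matched for 7 of the 8 genes. The motifs searched, on both strands, were DR4, the direct repeat bound by LXR with its partner RXR, with 1 mismatch allowed in each repeat, and the words of GATA factors (AGATAA) and of the core promoter box (TATAAA). Of 32851 promoter windows of this length, 11.7% held DR4, 11.2% the GATA word and 13.6% the TATA word. Capitals mark the matches.
Abcg5 to Abcg8, chr17:84683012-84683120, plus strand: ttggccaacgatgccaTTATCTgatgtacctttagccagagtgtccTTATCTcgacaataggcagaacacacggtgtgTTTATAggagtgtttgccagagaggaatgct
Abca1, chr4:53159896-53159995, minus strand: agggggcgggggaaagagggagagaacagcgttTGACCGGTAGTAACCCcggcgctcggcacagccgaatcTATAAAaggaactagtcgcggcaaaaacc
Abca3, chr17:24351923-24352022, plus strand: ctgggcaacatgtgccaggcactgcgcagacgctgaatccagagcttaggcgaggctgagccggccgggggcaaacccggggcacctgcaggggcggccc
Abcg5 and Abcg8 are transcribed away from each other, and the 109 bases between their start sites hold the GATA word 2 times and the TATA word 1 time. The Abca1 window holds a DR4 match at positions -67 to -52 from the start site, on the strand opposite to the gene, and a TATA word. The Lcat window holds a DR4 match at positions -32 to -17, which overlaps a GATA word. The Abca3 window holds none of the 3 words. A match describes letters in this window only.

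The genes that work with these 8 were described by 5 lists. Of 13 LXR receptors, partners and other targets, all 13 were tested, and 0 rose or fell; 3 had an unadjusted p under 0.05, against 20.5% of all genes. Their median ratio was 0.075, and it turned to -0.059 with median centring and to -0.015 without array 4; without arrays 1, 2 and 3 in turn it was 0.037, 0.036 and 0.023. Nr1h3, which encodes LXR alpha, had a ratio of 0.086 (adjusted p 0.403 by limma). Mylip, the LXR target that marks the LDL receptor for breakdown, had ratios of -0.28, -0.20, -0.11 and -0.43 and a fitted ratio of -0.25 (adjusted p 0.150), and its second probe read -0.085. Srebf1, the lipogenic LXR target, was at -0.17 (adjusted p 0.166). Probes of Rxra, the partner receptor, which was named after its values were seen, disagreed: the brightest had a ratio of 0.12, while a second one had 0.48 with an adjusted p of 0.0444 over all probes.

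Of 18 genes of the HDL particle, its receptor and its lipases, 0 passed of 18 tested, with a median ratio of -0.055; 8 had an unadjusted p under 0.05, against 20.5% of all genes. The median was -0.19 with median centring and -0.0099 without array 4. The number that passed was 1 in 4 of the 14 alternatives and 7 with the separate-channel fit. Apom, a carrier of sphingosine 1-phosphate on HDL, had ratios of -0.93, -0.44, -0.89 and -0.58, with a fitted ratio of -0.71 (adjusted p 0.0588 by limma). Apoa1, the main HDL protein, had ratios of -0.49, -0.15, -0.34 and -0.51 and a fitted ratio of -0.37 (adjusted p 0.0944). Both lay below 0 on all 4 arrays and short of the threshold. Scarb1, the HDL receptor of the hepatocyte, had a ratio of -0.078 (adjusted p 0.702).

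Among 9 partners of bile lipid transport, 0 of 9 passed and the median ratio was -0.067 (-0.12 to -0.059 over the 14 alternatives). Abcb4, which flips phosphatidylcholine into bile, was at -0.28 (adjusted p 0.208 by limma). Hnf4a, a hepatocyte transcription factor, had ratios of -0.47, -0.34, 0.18 and 0.11, which changed sign with the dye orientation. Its fitted ratio was -0.13 (adjusted p 0.239 by limma). For intracellular trafficking and esterification of cholesterol, 19 of 20 genes were tested and 0 passed, with a median ratio of -0.047 (-0.17 to -0.038 over the 14 alternatives). Scp2, the sterol carrier protein, had ratios of -0.17, -0.18, -0.52 and -0.50 and a fitted ratio of -0.34. Its adjusted p was 0.0506 over all genes and 0.0484 over all probes, on either side of the threshold. Nceh1, which hydrolyses cholesteryl esters, had ratios of -0.044, -0.091, 0.51 and 0.42, which also changed sign with the dye orientation. Its fitted ratio was 0.20 (adjusted p 0.121 by limma).

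Among the other members of the ABCA and ABCG families, 9 of 17 were tested and 1 passed, against 1.37% of all genes. That gene was Abca7, a close relative of Abca1 that is known from phagocytosis, and it fell. Its ratios were -0.88, -0.82, -0.39 and -0.33 (SD 0.29, n = 4), with a fitted ratio of -0.60 (1.52-fold lower, SE 0.047, adjusted p 0.0347 by limma). Abca7 thus fell by about the amount that Abca3 rose. Their adjusted p is the same because the Benjamini-Hochberg step can tie nearby p values, in limma 5.8e-05 for Abca3 and 6.1e-05 for Abca7. The dye term of Abca7 was -0.25 (unadjusted p 0.00359, adjusted p 0.128 over all genes by limma). The list had 0 genes that passed without the dye term, with processed signals, with median centring, with a trended and robust variance, and without array 3 or array 4. Abca2, a lipid transporter of endosomes and lysosomes, was at -0.27 (adjusted p 0.0799), and its second probe was at -0.20.

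**Figure D3:**
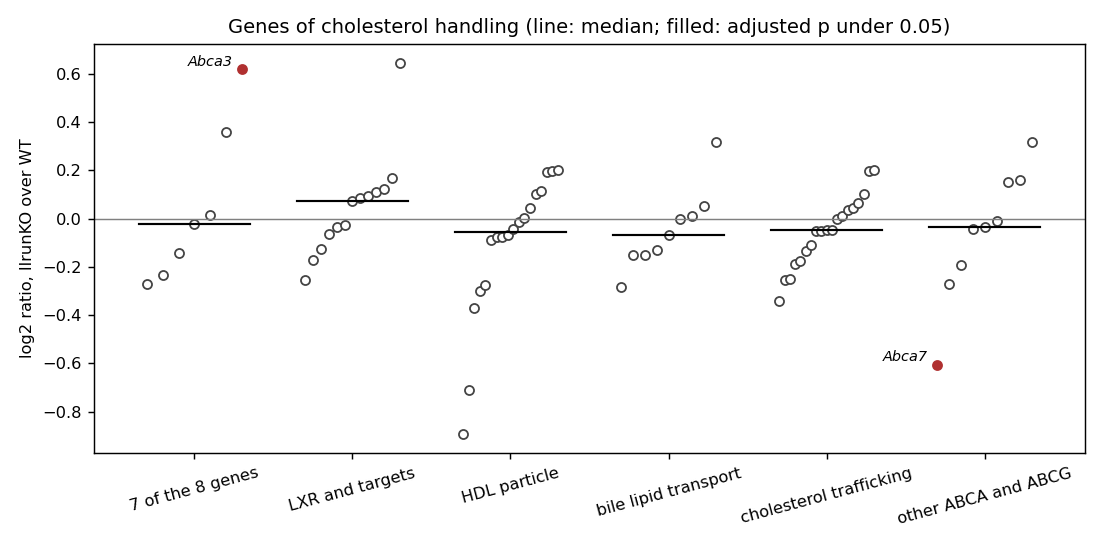
Fitted log2 ratio of IlrunKO over WT (vertical axis) for the 7 tested genes described here and for the tested genes of 5 lists; each circle is 1 gene in order of its ratio, filled red where the adjusted p was under 0.05, and the line is the median. Abca3 at 0.62 and Abca7 at -0.60 are the filled circles; every other gene drawn did not pass.

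Abca3, Abcg1, Abcg5 and Abcg8 lie on chromosome 17, which also carries Ilrun. The probe of Abca3 lies 3.34 Mb to one side of the brighter Ilrun probe and that of Abcg1 3.36 Mb to the other, whereas Abcg5 and Abcg8 lie 57.2 Mb away. Between Abca3 and Abcg1, both included and Ilrun left out, 3 of 178 genes tested passed (1.69%). Abca3 sets an end of this window and is counted in it, so the share rests in part on a gene already known to pass. On the rest of chromosome 17 the count was 12 of 820 (1.46%), and on other chromosomes 254 of 18592 (1.37%). The 3 genes between were Abca3, a transcript named in the files by its Ensembl identifier alone (0.70) and Metrn (-0.55), a secreted factor of glial cells. The last pair, and the neighbours that follow, were named after their values were seen.

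Within 200 kb of the Abca3 probe, 16 other genes were tested and 1 passed, against 1.37% of all genes. It was Ccnf, which encodes cyclin F; it had ratios of -0.97, -1.0, -0.56 and -0.71 and fell by 0.81 (adjusted p 0.0304 by limma). Abca17, the family member nearest to Abca3, had a ratio of -0.0097. Within 200 kb of Abcg1, 0 of 6 genes passed, and their ratios ran from -0.027 to 0.33. Near Lcat, 2 of 16 genes rose, against 0.718% of all genes. They were Dus2 (0.45), a tRNA dihydrouridine synthase gene, and Esrp2 (0.41), an epithelial splicing regulator gene. Near Pltp, 0 of 20 genes passed.

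**Figure D4:**
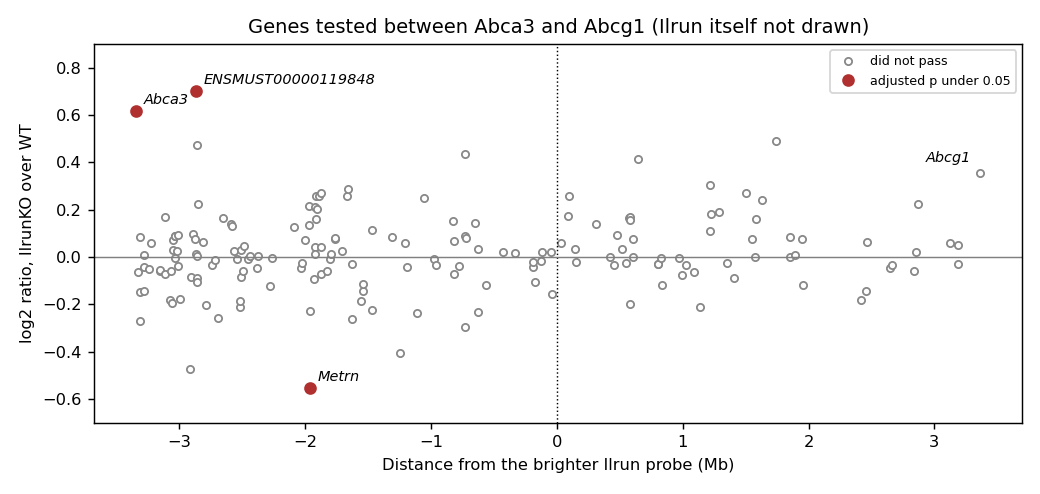
Fitted log2 ratio of IlrunKO over WT (vertical axis) against distance from the brighter Ilrun probe in Mb (horizontal axis) for the genes tested from Abca3 to Abcg1, with Ilrun itself left out. The 3 filled circles passed; Abca3 lies at the left end and Abcg1, which did not pass, at the right end, both 3.3 to 3.4 Mb from Ilrun.

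Likeness was measured as the Euclidean distance between the log2 ratios of 2 genes over the 4 arrays, so it describes 4 points that share 8 livers. Among 19564 genes with 4 ratios, those nearest to Abca3 were Sbsn (distance 0.085), Trappc6a (0.13) and 4933409K07Rik (0.18). Abcg1 was the 232nd nearest to Abca3, closer than any other of the 8 genes. Those nearest to Abcg1 were Trpt1, Prxl2a and Il3ra, from 0.13 to 0.17. Abcg8 was the 5042nd nearest to Abcg5, its partner in the heterodimer, at a distance of 0.46. It was still closer to Abcg5 than any other tested gene of the set. Nearest to Abcg5 were Cfap298, Timm8a1 and Map2k5.

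Nearest to Abca1 were Arl5b, Cope and AU035318, and nearest to Lcat were Errfi1, Pamr1 and Umps. Among the genes described here, Abca1 was the closest to Lcat, as the 533rd nearest gene. The pattern of Pltp had no near match, since the closest gene, Klk1b22, lay at a distance of 0.29; Amn1 and LOC676534 followed, and Lcat was the 1274th. The genes nearest to Abcg8 lay at 0.027 to 0.043: a transcript named by its Ensembl identifier, Gm16500 and Alkbh7. Ratios near 0 have many close neighbours, so ranks and distances are not comparable between a gene at 0 and a gene far from it.

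**Figure D5:**
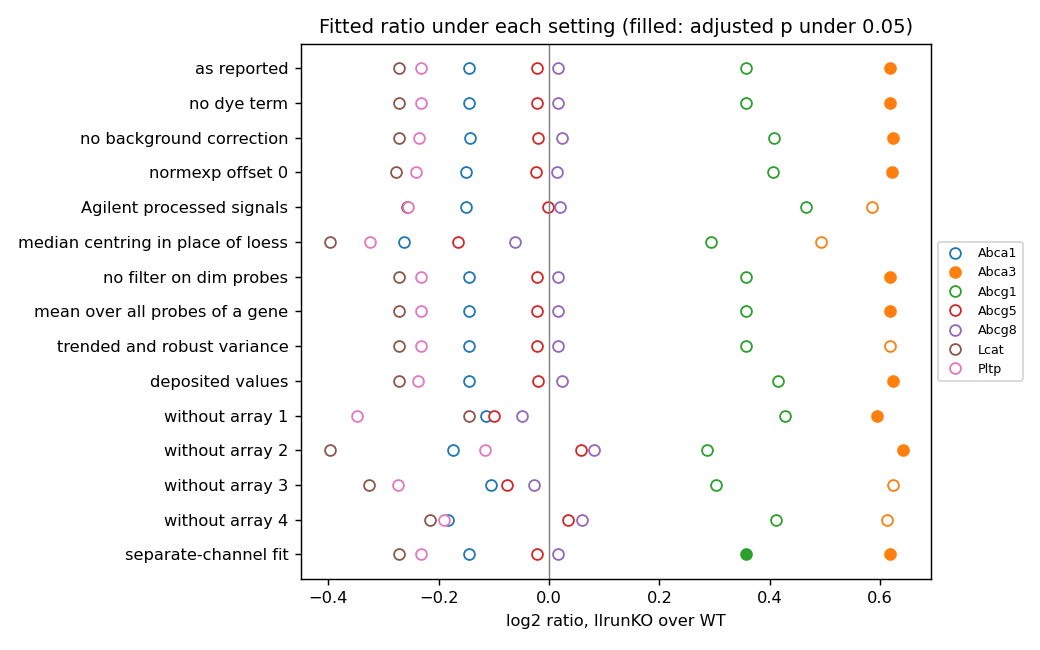
Fitted log2 ratio of IlrunKO over WT (horizontal axis) of the 7 tested genes as reported and under each of 14 alternatives (vertical axis); filled circles have an adjusted p under 0.05. Abca3 stays between 0.49 and 0.64 and is filled in the reported fit and in 9 of the 14 alternatives, and Abcg1 in 1 of 14.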

How the data were processed

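The members and gene lists were chosen with earlier results of these data known. Per the labels, 500 ng of RNA per sample was labelled, with the dye and genotype of each channel as given there. The authors deposited Agilent scanner files, which hold raw and processed intensity and, per the file headers, a log10 ratio (Cy5 over Cy3) from Feature Extraction 10.10.1.1. The deposited value table holds log2 ratios of IlrunKO over WT; across the probes tested it correlated with the scanner's log10 ratio at 0.91, 0.91, -0.92 and -0.90 on arrays 1 to 4, and its column medians were -0.039, -0.044, 0.040 and 0.036. Limma is named in the submitters' processing notes; version and settings: not given in the sources used here.

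Raw intensities were processed anew in R 4.3.3 by limma 3.58.1, with the data.table package (version 1.17.8): normexp background correction (offset 50), loess within arrays with 1377 control spots at weight 0, outlier spots left out (224 to 381 per array), spots of a probe averaged. Channel levels came from Aquantile scaling afterwards. Of 39429 probes, 26055 were named by RefSeq accession, 4125 by symbol or unique synonym, and 9249 kept the files' name. A gene was represented by its brightest probe and tested if 3 of 4 channels of either genotype were well above background. The fit (lmFit, eBayes, two-sided, Benjamini-Hochberg over all genes) had a genotype and a dye term, 2 residual and 2.83 prior degrees of freedom; the dye term takes up differences between arrays 1 and 2 and arrays 3 and 4. With 4 arrays, an exact sign-flip test of a single gene cannot go below p = 0.125. On simulated data (5 runs with 200 changed genes of 19565), 51.8% of log2 changes of 0.5 and 93.6% of those of 1 were found, and 40 of 767 calls were false. The simulated noise was normal and independent, with variances drawn from the fit's own prior, so these rates hold only under the fit's own assumptions. Named genes were all 8 genes, Ilrun, in each list the genes that passed and, where fewer than 2 did, the 2 with the smallest p, and Nr1h3, Srebf1, Mylip, Scarb1, Apoa1 and Abcb4; exceptions are stated where they occur. The 14 alternatives covered the dye term, background correction, normalisation, filter, probe choice, variance model, deposited values, channel pairing and each array left out.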

Additional observations from a re-analysis of the deposited data

Results flagged for a closer look

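One value among the 24 groups of 4 that were examined (the ratios, the IlrunKO levels and the WT levels of each of the 8 genes) lay far from the other 3. It was the WT level of Pltp on array 1, at 8.81, where the other WT livers had 9.56, 9.59 and 9.71. Chance flags about 1 in 20 such groups.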

How the results depend on the processing

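Over 14 alternatives, Abca1, Pltp and Lcat kept a ratio below 0 and did not pass, Abca3 kept a ratio above 0 (0.49 to 0.64) and passed in 9, and Abcg1 kept one above 0 (0.29 to 0.47) and passed in 1. The number of genes called, 270 as reported, was 442 without background correction, 82 with Agilent's processed signals, 1 with median centring, 0 with a trended and robust variance (limma), 450 with the deposited values and 2488 with the separate-channel fit, and ran from 1 to 465 with one array left out. At an unadjusted p under 0.05 the reported fit had 4028 genes. The number of probes called was 548, 68, 1, 0 and 589 for the first 5 of these and ran from 1 to 357 with one array left out. The calls among the 8 genes numbered 0 with processed signals, median centring or the trended and robust variance, 2 with the separate-channel fit, and 0 to 1 with one array left out. Median centring moved their median ratio to -0.16 and that of all genes to -0.050, and turned Abcg8 to -0.062. With one array left out, Abcg8 ran from -0.049 to 0.081 and Abcg5 from -0.10 to 0.058, so both changed sign. The causes of these shifts were not tested. Signal over background limits Npc1l1.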
